A study of Mus musculus with 6 samples.

Results

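The nuclear-encoded subunits of the mitochondrial respiratory chain were taken by gene symbol, as protein-coding nuclear genes named Ndufa, Ndufb, Ndufc, Ndufs or Ndufv with a number, Sdha to Sdhd, Uqcr, Cox4i, Cox5 to Cox8, or Atp5. The rule found 84 of the 43346 gene IDs in the count tables, of which 37 belonged to complex I, 4 to complex II, 8 to complex III, 18 to complex IV and 17 to complex V. Transcript levels had been measured by RNA sequencing of total RNA from liver of C57BL6 mice, all 3 months old. The libraries were labelled Control (3) or DKO (3), the latter from mice lacking both β-catenin (Ctnnb1) and γ-catenin (Jup) in hepatocytes, the main parenchymal cells of the liver. The state of both genes in the other liver cell types of these mice was not tested. Whether the 3 libraries of a group came from separate animals is not stated, so the p-values measure the spread between these libraries only.

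The electron transport chain passes electrons from NADH (through complex I) and from succinate (through complex II) to ubiquinone, then through complex III and cytochrome c to complex IV, which reduces oxygen. Complexes I, III and IV pump protons out of the mitochondrial matrix, and complex V, the ATP synthase, uses their return to make ATP. Most subunits are encoded in the nucleus and imported, while a small group is encoded by mitochondrial DNA. Liver is rich in mitochondria, and several complex IV subunits exist as a widely expressed or liver form and a form restricted to muscle, lung or testis.

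The libraries labelled DKO stood apart before any subunit was considered. Reads assigned to genes numbered 12320487 to 15869639 in the Control libraries and 309731, 525037 and 1491237 for DKO replicates 1, 2 and 3. This was 33.3 to 34.9% of all Control reads, but for DKO 2.68, 4.58 and 4.74%. The targeted genes did not settle the labels. Ctnnb1 had 2945, 2896 and 2650 reads in Control and 0, 52 and 65 in DKO, a log2 change of -2.26 with an adjusted p of 0.171 by edgeR's quasi-likelihood test with Benjamini-Hochberg adjustment. Jup had 339, 270 and 196 reads in Control and 6, 1 and 11 in DKO, with a log2 change of -1.68 and an adjusted p of 0.0847 by edgeR. Scaled on abundant liver genes instead, as described further on, the log2 fold changes were 0.92 for Ctnnb1 (adjusted p = 0.599) and 3.92 for Jup (adjusted p = 0.0421, higher in DKO) by edgeR. Both lay below the median of 4.70 over all genes tested on that scale, where 9769 of 15561 genes were higher. On neither of these scales did either gene pass as lower in DKO. Some alternative settings did give calls. Ctnnb1 was lower with DESeq2 (adjusted p = 0.0453), and by edgeR with no filter (0.00893) and without DKO replicate 1 (0.0119). Jup was lower by edgeR with no filter (0.0391), after background subtraction (0.0102) and without DKO replicate 1 (0.0434). In the other alternatives listed under data processing neither gene gained such a call. The labels' groups are used as given, and a DKO library below is a library labelled DKO. The 8 hepatocyte markers, among them Alb (albumin), summed to between 118600 and 129400 counts per 1000000 reads (CPM, scaled between libraries by the TMM method) in Control and to 681.1, 39350 and 7254 CPM in DKO replicates 1, 2 and 3, none of the 8 past the test. Some markers of other liver cells passed the test, beside 31.3% of all genes tested that were higher and 12.8% that were lower. Of 5 cholangiocyte (bile duct) markers 3 were higher by edgeR (Krt7, Epcam and Sox9) and Spp1 was lower. Krt7 rested on few reads, 2, 1 and 13 in DKO against 15, 5 and 13 in Control. The sum of the 5 ran from 78.8 to 100.4 CPM in Control and from 128.6 to 227.2 CPM in DKO. Of 5 sinusoidal endothelial markers Pecam1 was higher, with sums of 173.0 to 309.2 CPM in Control and 197.8 to 299.2 CPM in DKO. Of 5 stellate cell markers Col1a1 was higher, with sums of 69.9 to 110.3 CPM in Control and 96.3 to 277.0 CPM in DKO, and none of the 6 macrophage markers passed. The part of these markers in the results on the subunits was not tested, and in bulk tissue fewer cells of a type and less RNA per cell cannot be told apart.

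In Control liver the subunit transcripts were abundant and closely repeated. They took 1.74, 2.04 and 2.12% of gene reads in replicates 1, 2 and 3, with 95% Wilson intervals of 1.73 to 1.74, 2.03 to 2.05 and 2.11 to 2.13%, a mean of 1.97% ± 0.202 (SD, n = 3). Of the 84 subunits, 76 had enough reads to be tested. Among these, the coefficient of variation over the 3 Control libraries had a median of 12.8% and a range from 0.748 to 30.9%. Replicate 1 was the lowest of the Control libraries for 70 of the 76. The order of the 76 levels was nearly fixed, with Spearman correlations of 0.981 to 0.993 between pairs of Control libraries, as a description over genes of the same liver tables.

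Per kilobase of exon, the median Control level was 100 CPM for tested subunits of complex I, 170 for complex II, 352 for complex III, 369 for complex IV and 172 for complex V. Cox6a1, a liver-expressed form of a small complex IV subunit, stood highest at 810 ± 80.6 CPM per kilobase (SD, n = 3). Ndufa4, which was first assigned to complex I and also associates with complex IV, followed at 610 ± 137, and the 2 overlapped, with Ndufa4 at 739.6 in replicate 3 and Cox6a1 at 719.6 in replicate 1. Within the other complexes the leaders were Atp5g3, one of 3 genes for the same mature subunit c of the ATP synthase rotor, at 467 ± 49.0, and Uqcr11, the smallest complex III subunit, at 435 ± 97.3 CPM per kilobase. These neighbours did not differ beyond their spread. Sdhd, a membrane anchor of complex II, led that complex at 259 ± 38.7. On the scale of whole transcripts, not corrected for length, Atp5b, the catalytic β subunit of complex V, had the highest level at 1880 CPM.

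The 3 Control libraries divided their subunit reads among the complexes in almost equal proportions. Complex I held 27.6, 27.4 and 27.8% of subunit reads, complex II 6.59, 6.39 and 6.09%, and complex III 12.1, 12.5 and 13.1%. The 5 most abundant subunits together held 23.8% of all subunit reads in Control.

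Subunit genes are known targets of NRF1, of ETS-family factors such as GABP, of YY1 and of the nuclear receptor ERRα, so the letters of these motifs were searched on both strands of RefSeq promoters (GRCm38.p6), from 250 bases before to 50 bases after each gene's start. Promoters were matched for 68 of the 84 subunits and compared with those of all 17492 protein-coding genes of that table. A gene was counted where any of its promoters held the letters. The NRF1 letters GCGCATGCG were present in 8 of 68 (11.8%) against 2.61% of all these genes, and the ERRα letters TCAAGGTCA in 2 (2.9%) against 0.38%. CCGGAAG, an ETS core, was present in 16 (23.5%) against 12.95%. The YY1 letters AAGATGGCG were present in 7 (10.3%) against 2.14%. In 6 of these 7 they lay on the gene's own strand 22 to 35 bases after the start, and since the letters contain ATG, an overlap with start codons is possible and was not tested. The SP1 letters GGGGCGGGG differed little, at 12 subunits (17.6%) against 17.3%, and TATAAA was found in 7 (10.3%) against 14.8%. The median number of CG pairs was higher in the subunit promoters than in those of all these genes. The NRF1, ETS, YY1 and SP1 letters contain CG, while the ERRα letters and TATAAA do not. The promoters compared were not matched for CG pairs, so the part of this difference in the percentages was not tested. A match of letters is a description of the sequence and not of binding.

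The NRF1 letters began upstream of the start in 7 of the 8 subunits and lay on both strands, as a palindrome, in 5. In Uqcr11 they began 5 bases before the start and ran across it. The 4 that had the palindrome upstream are shown 5′ to 3′ along the gene's strand with the searched letters in capitals, to show how its distance and surroundings vary. In Ndufa11 (chr17:56717692-56717720, plus strand) it began 60 bases upstream, in Cox6a1 (chr5:115349102-115349130, minus strand) 162, in Atp5g2 (chr15:102671071-102671099, minus strand) 42 and in Atp5k (chr5:108434431-108434459, minus strand) 50 bases upstream. The window of Atp5j, a subunit of the ATP synthase stalk (chr16:84835046-84835074, minus strand), holds the only YY1 letters found upstream, beginning 88 bases before the start.
Ndufa11: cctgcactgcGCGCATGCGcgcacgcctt
Cox6a1: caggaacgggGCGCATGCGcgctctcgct
Atp5g2: ggctccggccGCGCATGCGcagagccttc
Atp5k: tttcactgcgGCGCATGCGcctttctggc
Atp5j: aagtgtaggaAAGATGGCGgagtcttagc

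The comparison of the libraries labelled DKO with those labelled Control asked how these transcripts differed between them. In the DKO libraries the subunits took 0.237, 1.12 and 0.236% of gene reads in replicates 1, 2 and 3, with 95% Wilson intervals of 0.220 to 0.254, 1.09 to 1.15 and 0.229 to 0.244%, a mean of 0.530% ± 0.509 (SD, n = 3). Every DKO share lay below every Control share. The absolute numbers were small, at 733, 5869 and 3523 subunit reads against 261430 to 284854 in Control. Intervals cover counting error only.

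Of the 76 tested subunits, 14 fell and 1 rose at an adjusted p under 0.05 by edgeR. Among all 15561 genes tested, 12.8% fell and 31.3% rose. At an unadjusted p under 0.05 there were 35 subunits. The log2 fold change was negative for 74 of 76, with a median of -2.42 against -0.08 over all genes tested. Every DKO library lay below every Control library for 74 of the 76, against 36.4% of all genes tested.

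The subunits were far more abundant than the typical tested gene, and against other abundant genes they stood out less. Among the 3133 other genes with a Control mean of at least 50 CPM, 22.5% fell, the median log2 fold change was -2.09 and 83.5% had every DKO library below every Control library. Of the 73 subunits above that level, 14 (19.2%) fell, the median was -2.44 and 98.6% had groups that did not overlap.

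**Figure D1:**
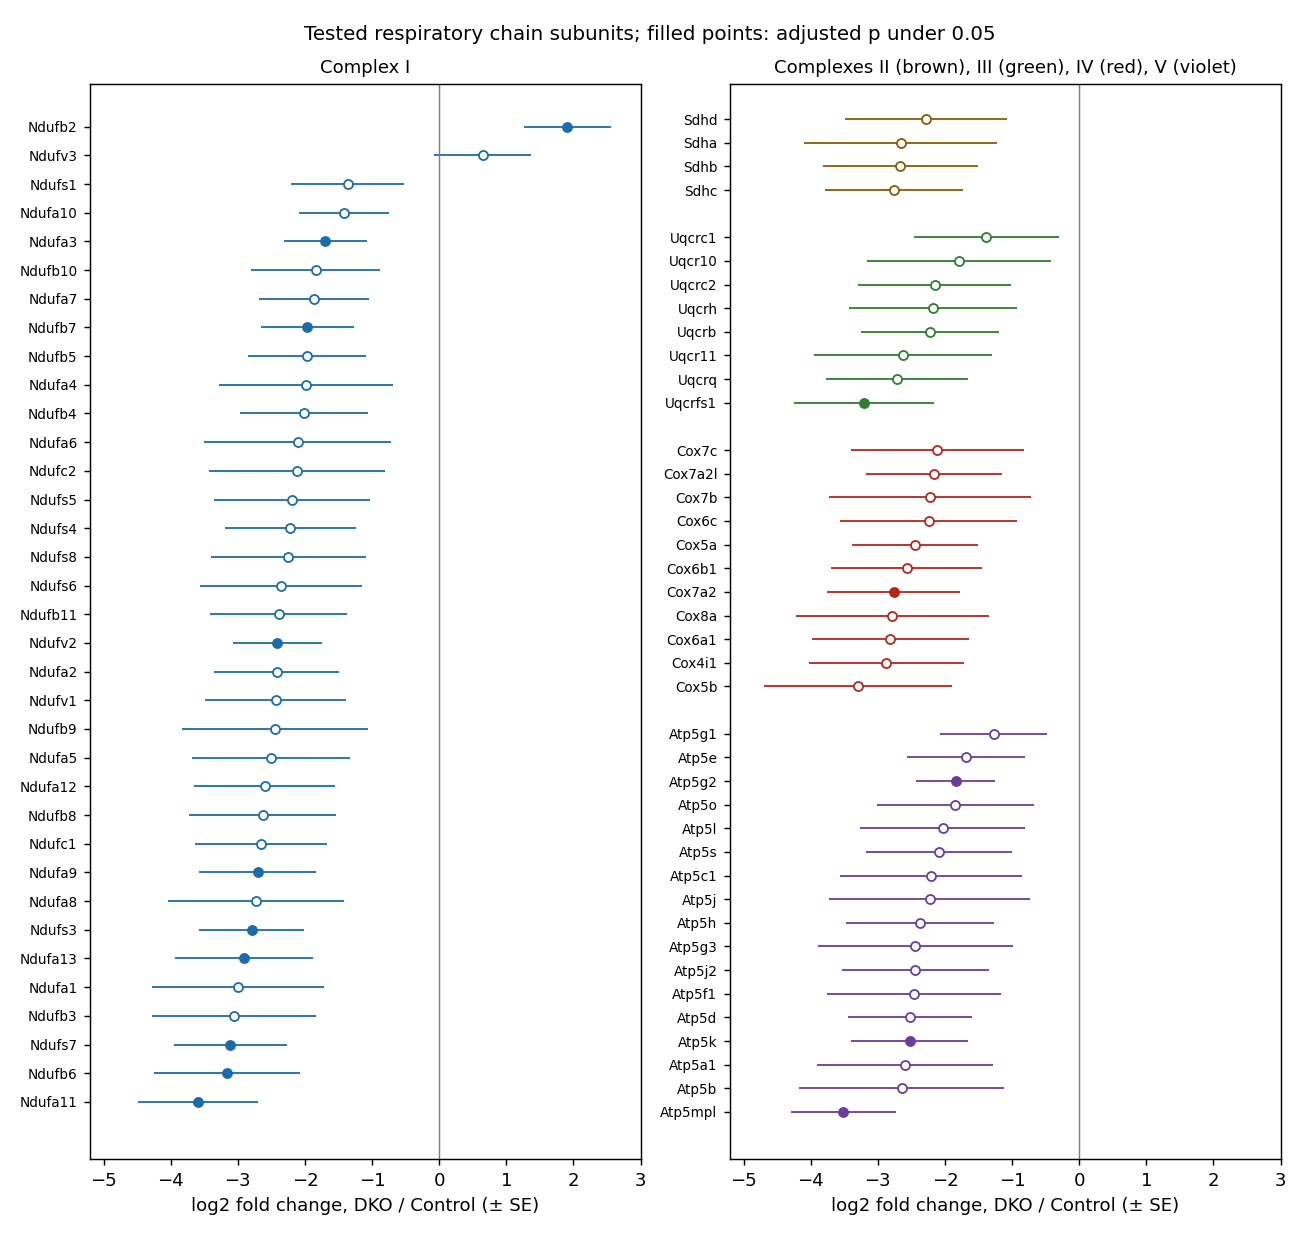
Log2 fold change, DKO over Control, of 75 tested subunits, with complex I on the left and complexes II to V on the right. Bars are standard errors derived from the fold change and F statistic of the edgeR fit, and filled points have an adjusted p under 0.05. All but Ndufb2 and Ndufv3 lie left of 0, and the lowest value is that of Ndufa11 at -3.59.

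The standard errors were derived from the fold change and the F statistic that also decides the call. At like fold changes a subunit that fell therefore has the smaller error, so this contrast is no separate result. For the subunits that fell, the standard errors had a median of 0.857 on the log2 scale, against 1.16 for the 61 that did not pass. The subunits that fell had a median log2 fold change of -2.78 against -2.36, and a median Control level of 165 against 301 CPM. Cox5b, a complex IV subunit, had a log2 change of -3.29 and did not pass.

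Complex I had 9 of its 36 tested subunits lower and 1 higher by edgeR, with a median log2 fold change of -2.40. Its 7 nuclear core subunits carry the flavin and the iron-sulfur clusters along which electrons run to ubiquinone, and 3 of them fell. Ndufs7, which holds the last cluster before ubiquinone, had 101, 118 and 115 CPM in Control against 10.2, 27.5 and 2.16 CPM in DKO, in the order of the replicates. No DKO value reached the lowest Control value, and the log2 fold change was -3.12 (SE 0.843, adjusted p = 0.0145 by edgeR). Ndufv2, beside the flavin, had 134, 157 and 180 CPM in Control and 22.9, 27.5 and 37.9 CPM in DKO, and Ndufs3 had 204, 252 and 260 CPM in Control and 20.4, 46.4 and 36.8 CPM in DKO. Both were low in all 3 DKO libraries, with log2 fold changes of -2.41 and -2.79 and adjusted p of 0.0149 and 0.0163 by edgeR. Among the others, Ndufv1 had a log2 change of -2.44 (adjusted p = 0.0845), Ndufs8 of -2.25 (0.134) and Ndufs1 of -1.36 (0.198), all by edgeR.

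Accessory subunits surround the core of complex I and are needed for its assembly and stability, and 6 of the 29 tested fell. Ndufa11, an accessory subunit of the membrane arm whose promoter window is shown above, had 71.5, 82.7 and 80.5 CPM in Control and 0, 8.60 and 10.8 CPM in DKO. These DKO levels rested on 0, 5 and 10 reads, and the log2 fold change was -3.59 (SE 0.893, adjusted p = 0.00962 by edgeR). The others that fell were Ndufa9, which sits near the ubiquinone site, Ndufa13, also known as GRIM-19, and Ndufa3, Ndufb6 and Ndufb7. Their log2 fold changes ran from -1.69 for Ndufa3 to -3.16 for Ndufb6, with adjusted p from 0.0313 to 0.0488 by edgeR. Ndufb6 shares 39.0% of its exonic bases with Smim27 on the opposite strand and Ndufa13 also overlaps such a gene, Tssk6. In addition, the sources used here do not give the strand setting of the counting, so their counts are uncertain to that extent.

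Ndufb2 and Ndufv3 were the 2 subunits without a negative fold change, and Ndufv3 was singled out after its values were seen. Ndufb2, a small accessory subunit, had 174, 124 and 118 reads in Control and 26, 13 and 76 in DKO, or 13.3, 11.3 and 12.3 against 33.1, 22.4 and 82.2 CPM. Every DKO level lay above every Control level, and the log2 fold change was 1.91 (SE 0.641, adjusted p = 0.0367 by edgeR). Its Control level per kilobase, 2.18 CPM, was the lowest of complex I. The gene model is long, at 5628 exonic bases against a median of 1696 for tested subunits, and overlaps exons of Braf and Gm16272 on the opposite strand. Reads expected from the general background of the DKO libraries, estimated from genes nearly silent in Control, were 8.95, 6.22 and 15.0 for this model. With them subtracted the adjusted p was 0.133 by edgeR, and leaving out any 1 Control library also ended the call.

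Ndufv3, an accessory subunit beside the flavin, had 1074, 993 and 915 reads in Control and 132, 111 and 56 in DKO. Its levels were 82.0, 90.5 and 95.1 CPM in Control and 168, 191 and 60.6 CPM in DKO, so DKO replicates 1 and 2 lay above and replicate 3 below the Control range. The log2 fold change was 0.65 with an adjusted p of 0.469 by edgeR. The expected background was 6.54 and 4.97 reads in DKO replicates 1 and 2, and in all 3 DKO libraries it was below the observed reads. In DKO replicate 1 Ndufv3 alone gave 132 of the 733 subunit reads, followed by Atp5g1 with 72 and Ndufa10 with 62.

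None of the 4 complex II subunits passed the test, and 2 of them had an unadjusted p under 0.05. Complex II is succinate dehydrogenase, also an enzyme of the tricarboxylic acid cycle, and is the only complex encoded wholly in the nucleus. Its flavoprotein Sdha had 595, 677 and 651 CPM in Control and 2.55, 270 and 32.5 CPM in DKO, and the iron-sulfur subunit Sdhb had 346, 451 and 439 CPM in Control and 5.09, 132 and 58.4 CPM in DKO. The membrane anchor Sdhc had 179, 203 and 203 CPM in Control and 2.55, 65.4 and 19.5 CPM in DKO, and the anchor Sdhd had 267, 327 and 361 CPM in Control and 2.55, 148 and 47.6 CPM in DKO. For all 4 the DKO libraries lay below the Control libraries and differed widely from each other, replicate 2 highest and replicate 1 lowest. The log2 fold changes were -2.66 for Sdha (adjusted p = 0.152), -2.66 for Sdhb (0.0878), -2.76 for Sdhc (0.0545) and -2.28 for Sdhd (0.144) by edgeR. Leaving out DKO replicate 2 brought all 4 past the threshold, with adjusted p between 0.00938 and 0.0337 by edgeR. All 4 also passed with DESeq2 (0.000971 to 0.0189) and by edgeR with no filter (0.00138 to 0.0115). Without DKO replicate 1 all but Sdha passed (0.0125 to 0.0387 by edgeR). Sdhb and Sdhc passed with DESeq2 size factors in edgeR (0.0274 and 0.0132). Sdhc passed by edgeR without mitochondrial genes (0.0284) and with a replicate block (0.0272). None passed without DKO replicate 3 (0.119 to 0.280), without any 1 Control library (0.117 to 0.269) or after background subtraction (0.298 to 0.463). On the scale of abundant liver genes none passed either (0.67 to 0.917 by edgeR). Many other subunits also passed where these did. Subunits that fell numbered 57 of 78 without DKO replicate 2, 65 of 84 with DESeq2 and 67 of 84 with no filter. Among all genes the shares were 26.7, 13.7 and 15.4%. Without DKO replicate 1, 55 of 78 fell (22.0% of all genes), and with DESeq2 size factors 47 of 76 (23.0%). Without mitochondrial genes 25 of 77 fell (14.1%), and with a replicate block 22 of 76 (14.0%).

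In complex III, 1 of 8 subunits fell. Uqcrfs1, the Rieske iron-sulfur protein that passes electrons to cytochrome c1, had 360, 454 and 444 CPM in Control and 10.2, 87.7 and 39.0 CPM in DKO, with a log2 change of -3.21 (SE 1.05, adjusted p = 0.0328 by edgeR). The groups did not overlap. Uqcr11 had 211, 291 and 334 CPM in Control and 0, 89.4 and 46.5 CPM in DKO, with a log2 change of -2.63 (adjusted p = 0.127 by edgeR). Uqcrc1, a core protein of the complex, came closest to Control in DKO replicate 2, at 279 CPM against 292 to 373.

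In complex IV, 1 of 11 tested subunits fell. Cox7a2, the widely expressed form of subunit VIIa, had 298, 362 and 396 CPM in Control and 11.5, 92.9 and 51.9 CPM in DKO, with a log2 change of -2.76 (SE 0.993, adjusted p = 0.0473 by edgeR). The groups did not overlap. Cox6a1 had 505, 613 and 589 CPM in Control and 19.1, 193 and 32.5 CPM in DKO, and Cox4i1, the common form of subunit IV, had 516, 589 and 570 CPM in Control and 11.5, 162 and 56.3 CPM in DKO. Their log2 fold changes of -2.81 and -2.87 had adjusted p of 0.0758 and 0.0687 by edgeR.

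In complex V, 3 of 17 subunits fell. Atp5mpl, a small membrane protein of the ATP synthase, had the smallest adjusted p of all subunits. Its levels were 202, 240 and 237 CPM in Control and 12.7, 17.2 and 29.2 CPM in DKO, low in all 3 DKO libraries with no overlap. The log2 fold change was -3.51 (SE 0.784, adjusted p = 0.00511 by edgeR). Atp5g2, another of the subunit c genes, had 77.4, 93.8 and 76.9 CPM in Control and 12.7, 24.1 and 32.5 CPM in DKO, with a log2 change of -1.84 (SE 0.589, adjusted p = 0.0300 by edgeR). Atp5k, subunit e of the synthase, fell with a log2 change of -2.52 (adjusted p = 0.0404 by edgeR). Atp5g3 had 896, 1064 and 1093 CPM in Control and 2.55, 363 and 198 CPM in DKO and did not pass, with a log2 change of -2.44 (adjusted p = 0.185 by edgeR). The call of Atp5mpl held with the other test, filter and size factors, after background subtraction, with a replicate block and without any 1 library, but not on the scale of abundant liver genes described next.

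The 14 calls depended on the scale and on single libraries. When libraries were scaled on 160 abundant nuclear liver genes outside the subunit list, no subunit fell, 3 rose and the median log2 fold change was 0.93, while the median over all genes moved from -0.08 to 4.70. Of all 15561 genes, 84 fell and 9769 rose on that scale. After subtraction of background reads 3 subunits fell, of which 2 were among the 14, while 20.8% of all genes fell. Without DKO replicate 1 or 2, 55 and 57 of 78 subunits fell, beside 22.0 and 26.7% of all genes. Without Control replicate 1, 2 or 3, 5, 4 and 3 of 76 fell, beside 4.05, 4.28 and 4.13% of all genes. Without DKO replicate 3 it was 7 of 78, beside 1899 of all 15836 genes. DESeq2, run without the filter on low counts, gave 65 of 84, beside 13.7% of all genes.

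The scale of abundant liver genes gave a different order of the groups than the share of gene reads. Per 100 reads of the 160 abundant genes there were 4.04, 4.78 and 4.99 subunit reads in Control. DKO replicates 1, 2 and 3 had 20.6, 5.35 and 9.27. Every DKO value was above every Control value. The 160 genes took 42.6 to 43.0% of gene reads in Control and 1.15, 20.9 and 2.55% in DKO. In DKO replicate 2, the median ratio of the 76 subunits to Control on this scale was 1.11, with an interquartile range of 0.865 to 1.39. Only 4 of the 76 were more than 2-fold above and 4 were below 0.5 of their Control level there. Atp5b had 448 reads in that library where the scale predicted 389, and Uqcrc1 had 162 where it predicted 69.7. Atp5mpl had 10 where 47.1 were predicted. In DKO replicate 3 the median ratio was 2.20 and 71 of 76 lay above 1. In DKO replicate 1 it was 2.08 with 23 of 76 at 0.

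**Figure D2:**
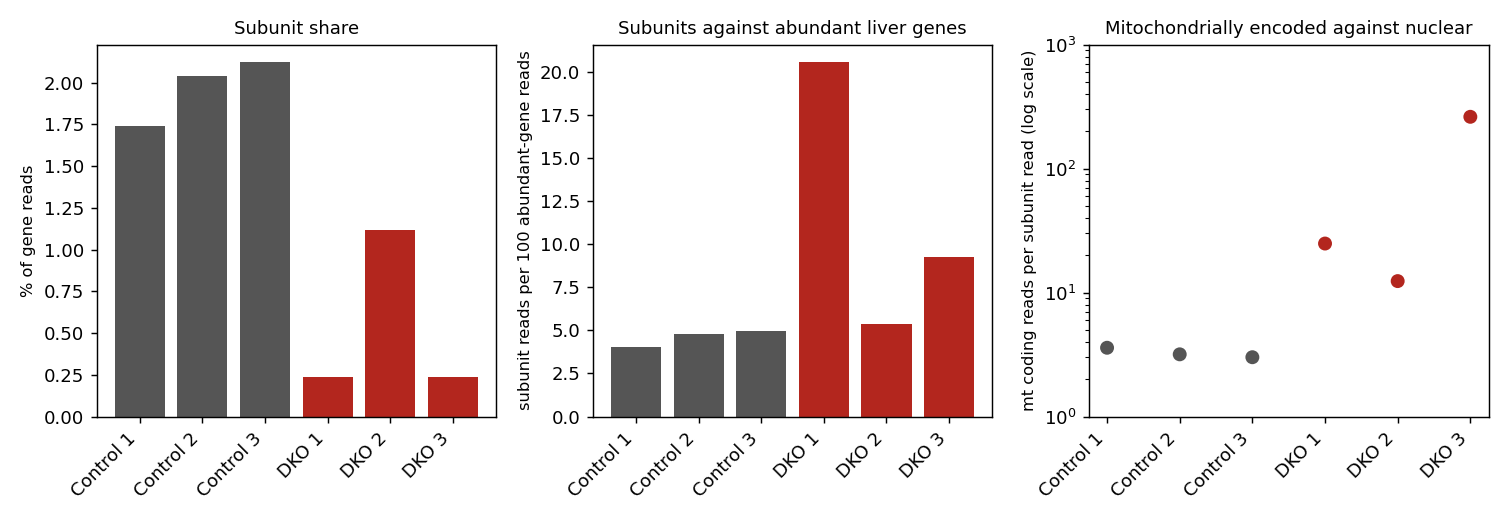
Measures per library: subunit reads as a percentage of gene reads, subunit reads per 100 reads of abundant liver genes, and reads of mitochondrially encoded subunits per nuclear subunit read on a log axis; grey is Control and red is DKO, 1 bar or point per library. The DKO libraries lie below Control in the first measure and above it in the others.

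The 3 DKO libraries held different subunit profiles. Replicate 2 was the highest of the DKO libraries for 66 of the 76 subunits, and replicate 1 the lowest for 68. As a description over the 76 subunits per kilobase, the Spearman correlation with the Control libraries was 0.890 to 0.899 for replicate 2, 0.808 to 0.847 for replicate 3 and 0.0205 to 0.053 for replicate 1. These values share the same libraries and depths, and replicate 1 had the lowest depth. Subunits at 0 among all 84 numbered 29, 7 and 4 in DKO replicates 1, 2 and 3, against 5, 2 and 6 in Control. A count of 0 allows up to 9.69, 5.71 and 2.01 CPM of gene reads, without TMM scaling, in these DKO libraries.

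**Figure D3:**
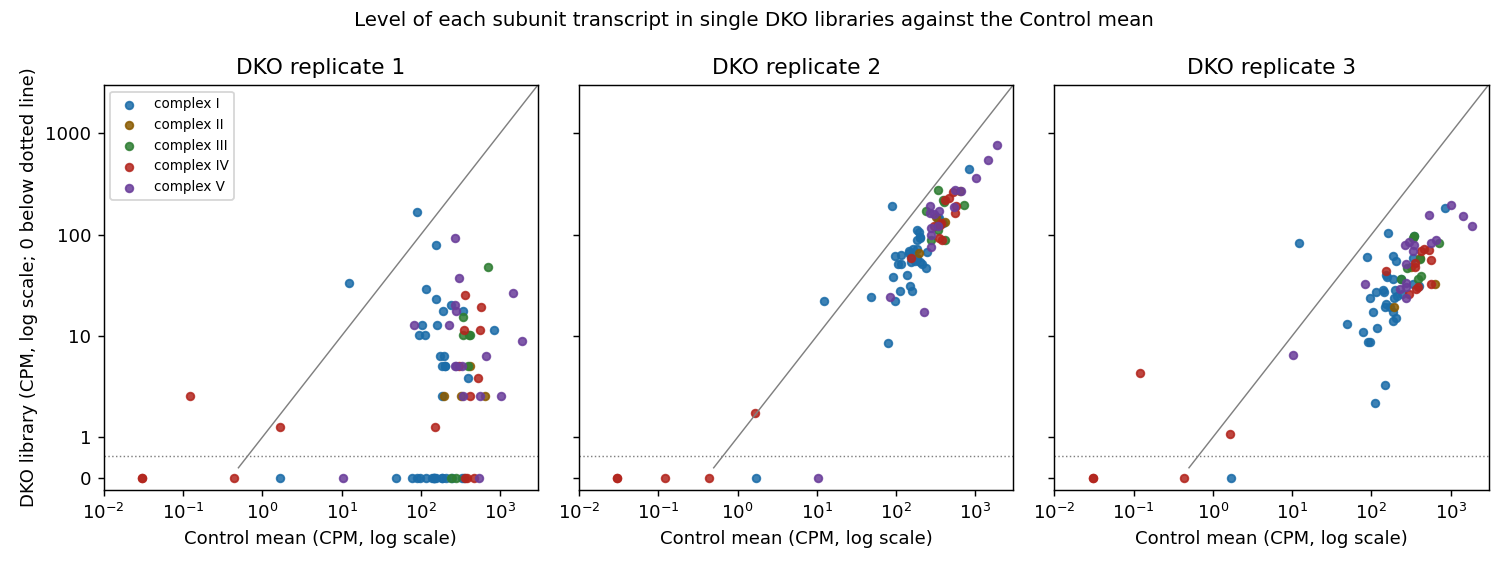
Level of each of the 82 subunits with a Control read in each DKO library against its Control mean (CPM, log axes; zeros are drawn below the dotted line; the diagonal marks equal levels), coloured by complex. In DKO replicate 2 the points run parallel to the diagonal, while in replicate 1 they show no order and 27 are at 0.

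Reads expected from the general background of the libraries amounted to 276, 197 and 482 over all subunits in DKO replicates 1, 2 and 3, beside the observed 733, 5869 and 3523. Of the 76 tested subunits, 39, 75 and 73 had more reads than their expected background in the 3 libraries. The division among complexes moved in the same libraries. Complex I held 51.4% of subunit reads in DKO replicate 1 (47.8 to 55.0 by the 95% Wilson method). In replicate 2 it held 28.4% (27.3 to 29.6), and replicate 3 gave 34.3% (32.7 to 35.8). Complex II held 1.36% (0.743 to 2.49), 6.10% (5.52 to 6.74) and 4.14% (3.53 to 4.85). In replicate 2 these shares lay within 1 percentage point of the Control range, and in replicate 1 the 5 highest subunits held 45.4% of all subunit reads. What part the background reads had in these profiles was not tested.

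**Figure D4:**
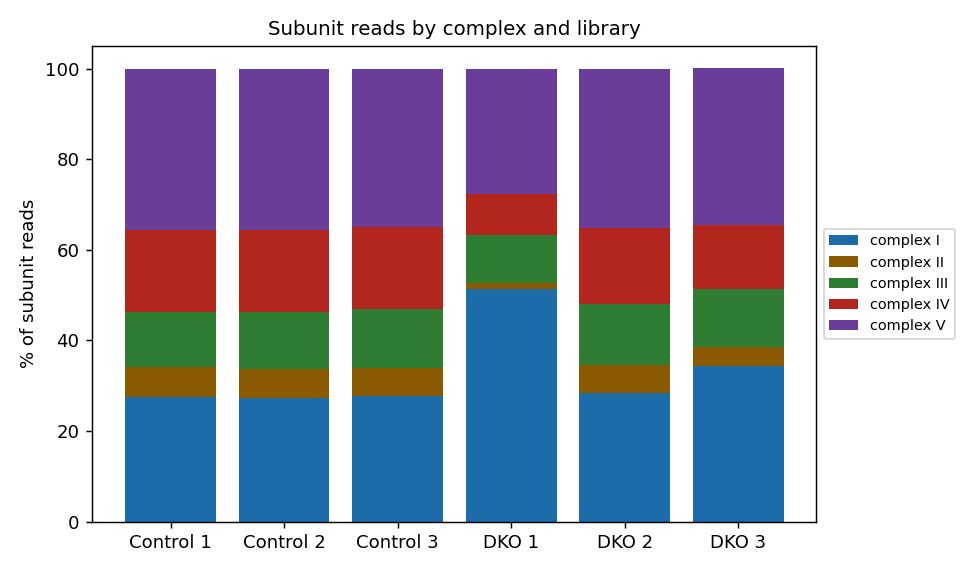
Share of subunit reads held by each of the 5 complexes in each library, in percent, stacked to 100. The 3 Control libraries and DKO replicate 2 look alike, and complex I takes 51.4% in DKO replicate 1.

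Tissue-restricted forms of the subunits stayed near the floor in Control liver, where their widely expressed partners were high. Cox6a2 and Cox8b, the heart and skeletal muscle forms of subunits VIa and VIII, each had 1 read over the 3 Control libraries and none in DKO. Cox7a1, the muscle form of VIIa, had 21, 19 and 16 reads in Control and 1 in each DKO library. Per kilobase this was 3.00, 3.24 and 3.11 CPM against 2.38, 3.22 and 2.02, so the groups overlapped, while its partner Cox7a2 stood at 373 ± 52.5 CPM per kilobase in Control (SD, n = 3).

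Cox4i2, a form of subunit IV known from lung, had no read in Control and 0, 8 and 6 reads in DKO. The testis forms Cox6b2, Cox7b2 and Cox8c were also scarce. Cox6b2 had 16, 1 and 0 reads in Control and none in DKO, Cox7b2 had 0, 4 and 0 against 2, 0 and 4, and Cox8c had none against 0, 0 and 2. Ndufa4l2, a hypoxia-inducible relative of Ndufa4, had 16, 25 and 15 reads in Control and none in DKO. With a floor of 3 reads over the group this was at least 1.29-fold lower on the TMM scale only. The scale of abundant liver genes predicted 0.00865, 0.349 and 0.1 reads in DKO replicates 1, 2 and 3, so it gives no such bound. These 8 genes were too low to be tested. Their partners Cox6b1, Cox7b and Cox8a had log2 fold changes of -2.57, -2.22 and -2.78 and did not pass by edgeR (adjusted p = 0.0897, 0.238 and 0.135), and Ndufa4 had -1.99 (adjusted p = 0.222).

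The 7 striated muscle markers summed to 0.727 to 2.28 CPM in Control and 28.0, 84.3 and 72.5 CPM in DKO. The 3 tested members (Myh4, Tnnt2 and Myh6) were higher, beside 31.3% of all genes tested. Myh4 and Myh6 had at most 1 read in each Control library. The defining markers Ckm and Acta1 had 2 and 0 reads in all DKO libraries together. The 5 testis germ cell markers summed to at most 0.0763 CPM in Control and 33.1, 25.8 and 73.6 CPM in DKO. The 2 tested members, Tnp1 and Tnp2, had at most 1 read in each Control library and were higher. Myh4, Myh6, Tnp1 and Tnp2 could pass the read filter only through the DKO libraries, so a rise was their only possible outcome. The defining markers Prm1 and Prm2 had 0 reads in all 6 libraries. The part of both lists in the few reads of muscle and testis forms was not tested.

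**Figure D5:**
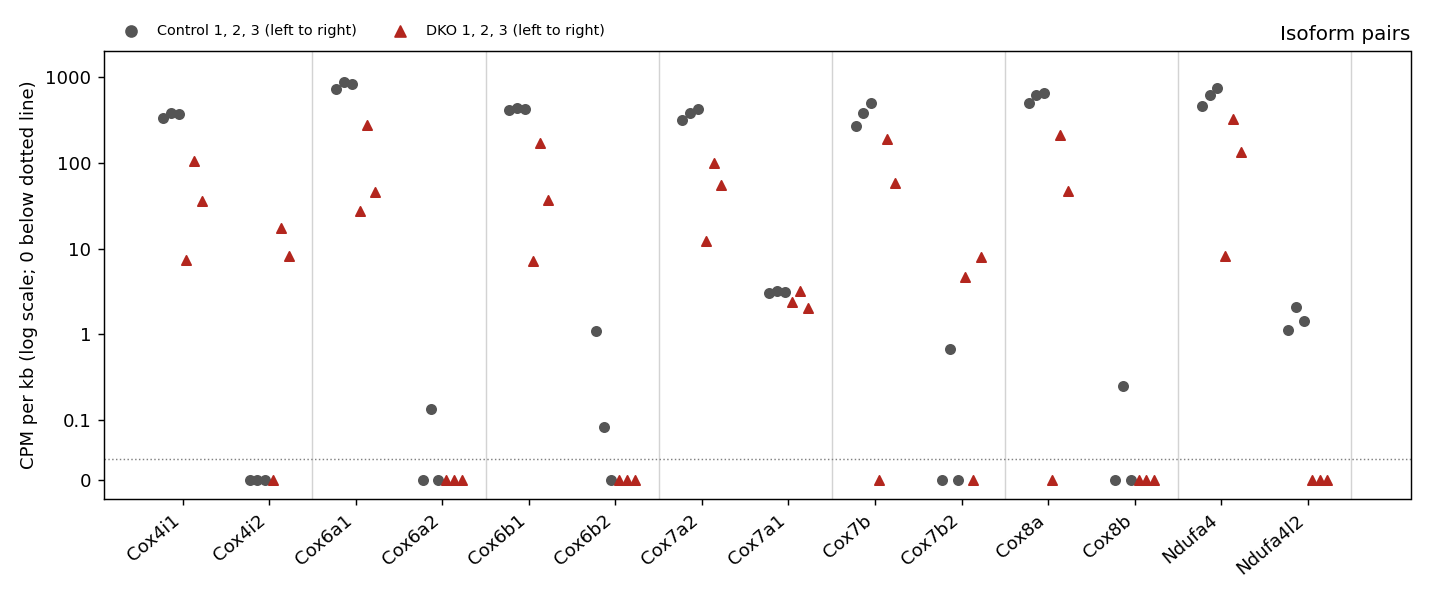
Level per kilobase of exon (CPM per kb, log axis, zeros below the dotted line) of the widely expressed and the tissue-restricted member of 7 subunit pairs, with each library as 1 point (grey circles Control, red triangles DKO). The restricted forms lie far below their partners in every Control library.

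Several subunit genes have copies that make single reads ambiguous. Of the 84 members, 24 shared 75-base stretches with a gene elsewhere in the genome, 23 of them with pseudogenes, and 14 shared more than 10% of such stretches. The highest share was that of Atp5g2, one of the subunits that fell, at 86.9%. Its closest copy Gm10175 had 6, 4 and 3 reads in Control and 0, 1 and 7 in DKO. Ndufs3, which also fell, shared 27.1%, and its copy Gm12251 had 18, 33 and 28 reads in Control and 0, 4 and 1 in DKO. The counts of both members are therefore uncertain. Atp5l, a membrane subunit of the ATP synthase, shared 63.4%, and its copy Gm10221 had 68, 66 and 65 reads in Control and 9, 2 and 15 in DKO.

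The coding sequence of Ndufb4, an accessory subunit of complex I (chr16:37647170-37654453, mm10, minus strand), is present whole and unbroken in the pseudogene Ndufb4c. All 390 coding bases were identical, so a read from them has 2 equal places of origin, and its start is shown with the start codon in capitals. Ndufb4 stood at 25.4 ± 5.97 CPM per kilobase in Control (SD, n = 3), against the complex I median of 100, and Ndufb4c had 8, 19 and 18 reads.
Ndufb4: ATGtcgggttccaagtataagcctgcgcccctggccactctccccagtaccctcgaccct

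Assembly factors insert subunits and cofactors into the complexes. Of 52 tested assembly factors 16 fell (30.8%) and 2 rose by edgeR, against 12.8 and 31.3% of all genes. Those that fell included 6 of 16 for complex I, among them Ndufaf2 (log2 fold change -3.88, adjusted p = 0.0207 by edgeR) and Foxred1 (-2.34, 0.0101), and 8 of 22 for complex IV, among them Surf1 (-2.87, 0.0404). Of the 6 tested for complex III none passed. Ndufaf7, a methyltransferase that modifies a complex I core subunit, rose with a log2 change of 1.64 (adjusted p = 0.0328 by edgeR), and Cox17, the copper chaperone of complex IV, rose by 3.29 (0.00471). Cox17 rested on few reads, 31, 35 and 27 in Control and 27, 6 and 34 in DKO. What part background reads had in its rise was not tested.

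Among 10 further chain members and mobile carriers and 14 tricarboxylic acid cycle enzymes, 1 of each fell, beside 12.8% of all genes. In the first list it was Etfdh, which passes electrons from fatty acid oxidation to ubiquinone (log2 fold change -2.88, adjusted p = 0.0334 by edgeR). Cytochrome c (Cycs) had -2.57 and an adjusted p of 0.0782. The cycle enzyme that fell was Idh3a (-1.80, adjusted p = 0.0452 by edgeR).

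Of 15 regulators of mitochondrial gene expression, 3 fell and 5 rose by edgeR, beside 12.8% of all genes that fell and 31.3% that rose. Yy1, the factor whose letters are shown in the Atp5j window, fell by 3.85 on the log2 scale (adjusted p = 0.0163 by edgeR). It had 707, 579 and 644 reads in Control and 0, 0 and 10 in DKO. Nrf1, the factor whose palindrome is shown for 4 subunits, rose by 1.82 (adjusted p = 0.0327 by edgeR), with 153, 119 and 107 reads in Control and 17, 33 and 38 in DKO. The coactivator Ppargc1a had 91, 62 and 65 reads in Control and 46, 1 and 69 in DKO, so DKO replicate 2 held a single read, and its log2 fold change was 2.81 (adjusted p = 0.0386 by edgeR).

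None of the 13 mitochondrially encoded subunits passed the test by edgeR, and their median log2 fold change was 2.08, opposite in sign to that of the nuclear subunits. None of the 13 had an adjusted p under 0.0690 (mt-Nd3). Reads of these 13 per nuclear subunit read were 3.59, 3.17 and 3.01 in Control. In DKO replicates 1, 2 and 3 they were 24.9, 12.4 and 262. Every DKO library lay above every Control library. The mitochondrial subunits took 6.23 to 6.48% of gene reads in Control and 5.88, 13.8 and 61.8% in DKO, so in replicate 1 the higher ratio stood beside a share below the Control range. Without mitochondrial reads in the total, nuclear subunits took 1.86, 2.19 and 2.27% in Control and 0.253, 1.31 and 0.634% in DKO, and 25 of them fell, 13 of these among the 14.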

How the data were processed

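Total RNA from liver was sequenced in 6 libraries. Per the submitters' processing notes the reads were handled with STAR and HTSeq on mm10; versions, strand setting, annotation release and read length were not given in the sources used here. The values deposited by the authors are raw counts per gene, checked as whole numbers. The 5 rows that name no gene held 65.1 to 66.7% of reads in Control and 95.3 to 97.3% in DKO and were left out.

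Groups came from the sample titles. Gene symbols, exonic lengths and transcripts were taken from GENCODE M21, which named all but 884 gene IDs. Genes passing filterByExpr (minimum count 10) were fitted over all 6 libraries with edgeR 4.0.16 (R 4.3.3): TMM scaling, robust quasi-likelihood F test, Benjamini-Hochberg adjustment over 15561 genes, threshold 0.05. CPM are TMM-scaled. Standard errors of fold changes were derived from that fit, as the absolute fold change over the root of its F statistic. The biological coefficient of variation was 63.9% over all libraries and 18.8% among Control libraries. Background reads per subunit were estimated from 8595 protein-coding genes holding 10 Control reads or fewer, by exonic length in 10 GC classes. The abundant-gene scale used 160 nuclear genes that each exceeded 30000 Control reads.

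The subunits and gene lists were chosen with earlier results of these data known. Named genes were, per complex, the highest Control level per kilobase and up to 2 subunits per direction with the smallest adjusted p, all Sdh genes, 7 isoform pairs and the targeted genes; other subunits that passed and singled-out values were added after they were seen. Alternatives were DESeq2 1.42.0 and its size factors, no filter, no mitochondrial genes, the abundant-gene scale, background subtraction, a replicate block and each library left out. The values of 1 subunit are not reported here by name; it stays in all counts.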

Additional observations from a re-analysis of the deposited data

Results flagged for a closer look

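The 10 processed pseudogenes whose symbols follow the same naming rule as the subunits were outside every comparison, and their summed CPM of gene reads (without TMM scaling) were above the Control level in each DKO library. The values were 2.52, 3.01 and 3.41 in Control replicates 1, 2 and 3 and 87.2, 20.95 and 24.8 in DKO replicates 1, 2 and 3, a mean of 44.3 in DKO against 2.98 in Control. These were 40, 42 and 42 reads in Control and 27, 11 and 37 in DKO. What part background reads had in these values was not tested, and 31.3% of all genes tested rose in DKO by edgeR. In Control most came from Cox6c2 and Ndufb4c, with 19, 15 and 8 and with 8, 19 and 18 reads. In DKO most came from Atp5l2-ps, with 14, 2 and 13 reads, and Ndufs6b, with 13, 6 and 6.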

How the results depend on the processing

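The number of subunits that fell (14 of 76, beside 12.8% of all genes) was 65 of 84 with DESeq2, which also changed the filter (13.7% of all genes), 67 of 84 with no filter (15.4%), 47 of 76 with DESeq2 size factors (23.0%), 25 of 77 without mitochondrial genes (14.1%), and of 76 it was 0 on the scale of abundant genes (0.54%) and 3 after background subtraction (20.8%). Leaving out 1 library gave 3 to 57. With each DKO library as the only one, an alternative chosen after seeing the data that assumes it varies like Control, it was 74, 71 and 74 of 79, beside 44.9, 28.6 and 33.8% of all genes. The number that rose (1, beside 31.3% of all genes) was 2 with DESeq2 (8835 of all 30209 genes) and 3 with no filter (11477 of 30209). It was 3 on the abundant-gene scale (9769 of 15561) and 0 after subtraction (2312 of 13343). With 1 library left out 0 to 1 rose, beside 4130 to 5624 of all genes. Whether equal replicate numbers pair the libraries is not stated. Correlations of deviations were 0.121, 0.0726 and -0.0204 for equal numbers and from -0.136 to 0.0925 for unequal ones. With 3 libraries per group they cannot decide it. As a replicate block the numbers gave 22 that fell (14.0% of all genes), 6 of these among the 14. With that block 0 rose, beside 4143 of all 15561 genes. The median log2 fold change was 0.93 on the abundant-gene scale and -6.12 with DKO replicate 1 alone.

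On the abundant-gene scale the log2 fold change reversed to 1.21 for Ndufa4, 0.01061 for Ndufa11, 2.05 for Ndufs7, 0.71 for Sdhd, 0.72 for Sdhb, 0.50 for Sdhc, 0.36 for Uqcr11, 0.86 for Uqcrfs1, 1.16 for Cox6a1, 1.35 for Cox7a2, 0.83 for Cox4i1, 0.68 for Cox6b1, 0.41 for Cox7b, 0.58 for Atp5g3, 1.73 for Atp5mpl, 3.23 for Atp5g2, 0.92 for Ctnnb1 and 3.92 for Jup. Of these Jup passed the threshold (adjusted p = 0.0421 by edgeR), and the others had adjusted p from 0.0854 to 0.995. Sdha (-0.19) and Cox8a (-0.26) stayed negative, and Ndufb2 (7.39, adjusted p = 0.00756) and Ndufv3 (6.65, adjusted p = 0.0158) were higher by edgeR. On this scale 9769 of all 15561 genes tested were higher, and the median log2 fold change over all of them was 4.70. The causes were not tested. The depth of the DKO libraries limits each value: a subunit with 0 reads in DKO replicate 1 may hold up to 9.69 CPM of gene reads without TMM scaling.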
